A study of Mus musculus with 87 samples.

Results

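Sham surgery, in which the abdomen of a mouse is opened under anaesthesia and closed again with the liver left whole, was compared with the resting state by poly(A) RNA sequencing of whole livers. The comparison holds 12 of the 80 libraries analysed from the series, one library per mouse. The 6 sham livers (S1, replicates 1 to 6) were taken 1 h after surgery, at ZT3 (3 h after lights on), and the 6 resting livers (C0, replicates 1 to 6) came from unoperated mice at ZT2. All mice were male C57BL/6 of 12 to 14 weeks of age, kept in light-dark cycles with food only in the dark phase, and the operated mice received isoflurane. Replicates 7 to 9 of C0 stand apart from the other C0 libraries and were left out of the comparison. Surgery, the anaesthesia and handling that went with it, and 1 h of clock time all separate S1 from C0, and their parts cannot be told apart. The other 3 groups used here serve to place the result: X1, 6 livers 1 h after the removal of the larger part of the liver (partial hepatectomy, PH), S4, 5 livers 4 h after sham surgery, and C4, 3 livers of unoperated mice at ZT6.

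Any operation brings on a stress reaction. The brain prompts the adrenal glands to release glucocorticoid and catecholamines, and injured tissue sends out cytokines. The liver holds receptors for all of them. It answers with immediate early transcription factors within minutes and with acute-phase plasma proteins over hours. Immediate early genes such as Fos, Jun and Atf3 need no protein synthesis for their transcription and are short-lived, because phosphatases of the Dusp family and RNA-binding proteins such as Zfp36 shut the response down. In this tissue the same hour is read as the priming phase of regeneration when part of the liver has been removed, so the sham livers serve as its control.

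Values are log2 RPKM (reads of a gene scaled by its length and by the reads of the library), and differences are log2 fold changes of RPKM + 0.25 from limma with their SE. A gene was called when its adjusted p (Benjamini-Hochberg over 15396 genes tested) fell below 0.05 with a difference beyond 0.5 on the log2 scale. Each library counted as independent in the fit, and the spread was shared over all groups of the series. The SE and p-values therefore leave out that sham mice were operated on 3 at a time. Estimated depth ran from 25.5 to 34.4 M reads in C0 and from 12.2 M reads (S1 replicate 5) to 46.0 M reads (S1 replicate 1) in the sham livers. The liver label holds, since albumin (Alb) lay between 14.98 and 15.25 in C0 and between 14.16 and 15.20 in S1. The median gene of a library was lower in S1 replicates 1 to 3 (0.86 to 1.04 on the log2 scale) than in S1 replicates 4 to 6 (1.08 to 1.23) or in the 6 C0 libraries (1.11 to 1.25), and the median change over all genes was −0.14. The split of the S1 against C0 calls over the 12 livers, and the falls named, were therefore read also with every library set to the same median, after which the median change was 0.01.

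One hour after sham surgery 272 genes were higher, which is 1.77% of the genes tested, and 602 were lower (3.91%). With every library at the same median the split turned to 418 higher and 190 lower, so that the higher share of the calls went from 31.1% to 68.8%. All 272 rises were called under both scalings (1.77%), but only 190 of the falls were (1.23%), and the falls named here are among those 190 unless it is said otherwise. The falls depended on single libraries, with 379 lower genes without S1 replicate 3 and 946 without S1 replicate 4. The 6 S1 libraries did not overlap the 6 C0 libraries in 656 genes (4.26%), and 333 of these were also called, 109 higher and 224 lower.

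The largest rise over the 12 livers was that of the metallothioneins, small proteins that bind zinc and copper and are induced by metals, glucocorticoids and inflammation. Mt2 (chromosome 8, 96696518 to 96697467 in mm9) lay at 1.26, 3.69 and 5.94 (lowest, median and highest log2 RPKM) in C0 and at 6.96, 9.10 and 9.85 in S1. Its difference was 5.05 (SE 0.59, adjusted p = 4.41e-09, limma), a 33.2-fold rise, and that of Mt1, its neighbour on the same strand, was 4.46 (SE 0.51, adjusted p = 1.87e-09). No S1 library overlapped a C0 library for either gene, which was a condition for choosing the leading genes. The lowest 3 C0 values of each lay in replicates 1 to 3 and the highest 3 in replicates 4 to 6. In replicates 4 to 6 alone the rises of Mt2 (2.60) and Mt1 (2.23) were smaller than those of Ppp1r3g (4.43), Nr4a1 (4.06), Atf3 (3.97), Fbf1 (3.58) and Gdf15 (3.46).

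Ppp1r3g, which directs protein phosphatase 1 to glycogen and favours glycogen synthesis after a meal, went from −2.53, −1.46 and −0.35 in C0 to 1.60, 3.68 and 4.62 in S1, a difference of 4.00 (SE 0.42, adjusted p = 2.04e-10). Gadd45b, a stress sensor that acts on the p38 and JNK kinase pathways, went from −1.69, −0.78 and 0.55 to 1.37, 2.81 and 3.43 (2.88, SE 0.29, adjusted p = 1.26e-10). Its relative Gadd45g rose by 2.70 (adjusted p = 1.93e-05). These 3 genes separated the groups in every library, as the choice of the leading genes required. Igfbp1, a secreted binding protein of the insulin-like growth factors that rises in fasting and stress, went from 5.25, 6.54 and 7.03 to 7.80, 8.86 and 9.59 (2.53, SE 0.50, adjusted p = 0.000182). Gdf15, a stress hormone of the TGF-beta family that acts on the hindbrain to curb appetite, rose by 2.58 (adjusted p = 1.9e-08), from between −0.30 and 1.40 to between 2.14 and 4.82. The genes Fbf1, which serves the base of cilia, and 1700017B05Rik rose by 2.59 and 2.38. The plot of the leading genes shows all of these in every library.

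**Figure D1:**
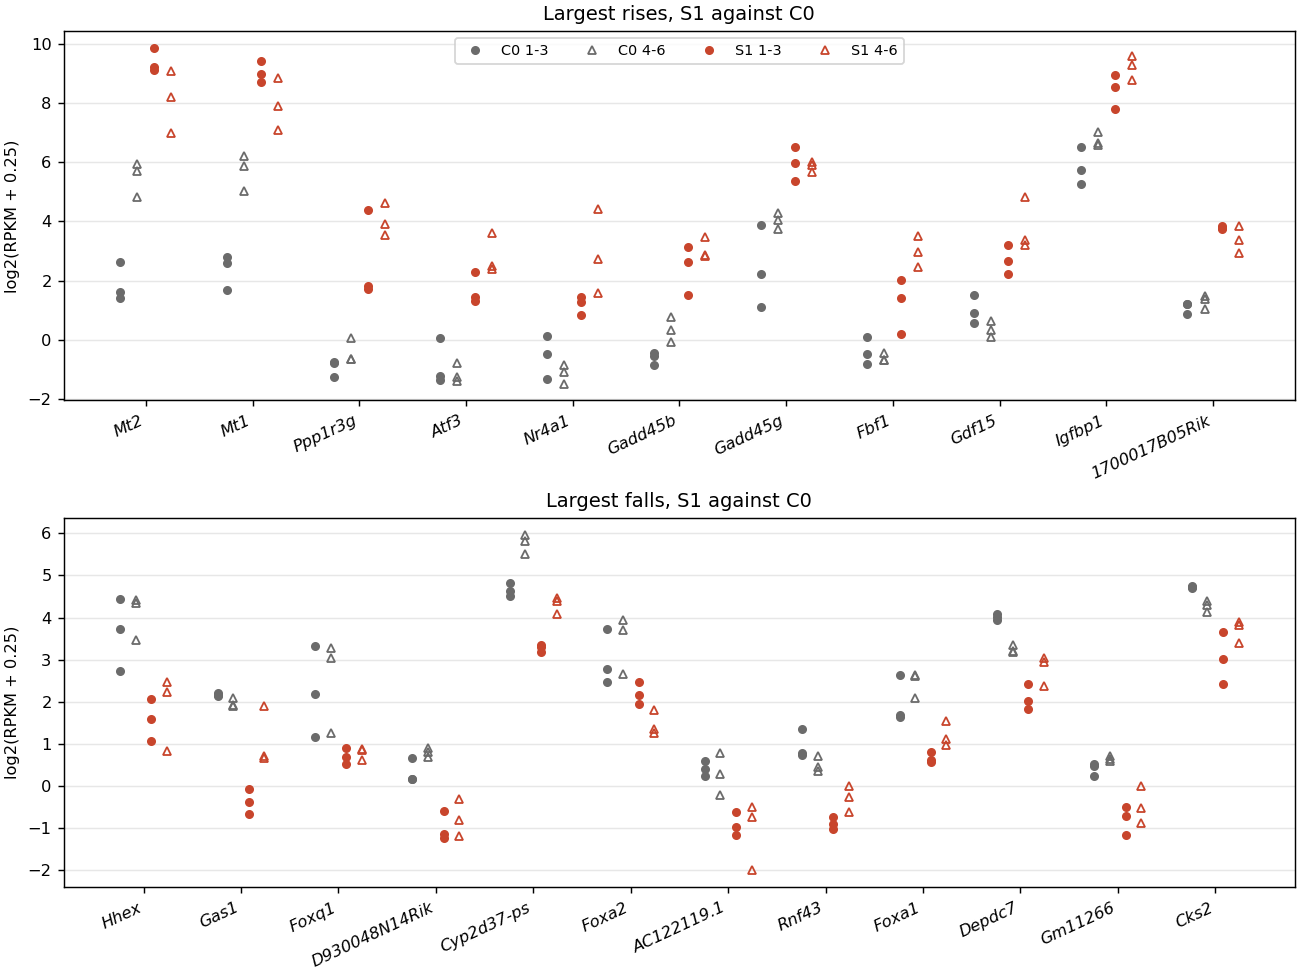
Levels, as log2(RPKM + 0.25), of 11 of the 12 largest rises (top) and the 12 largest falls (bottom) among called genes whose S1 and C0 libraries did not overlap and whose mean was above 0 in at least 1 group. Each point is 1 liver, circles are replicates 1 to 3 and triangles replicates 4 to 6, and every S1 point of Mt2 (6.96 to 9.85 log2 RPKM) lies above every C0 point (1.26 to 5.94).

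The largest fall over the 12 livers was that of Hhex, a homeobox factor needed to form the liver bud. Hhex (chromosome 19, 37507377 to 37515218, mm9) lay at 2.67, 4.01 and 4.41 in C0 and at 0.62, 1.72 and 2.42 in S1, with a difference of −2.13 (SE 0.38, adjusted p = 3.95e-05). Foxa2 and Foxa1, forkhead pioneer factors that open chromatin at liver genes, fell with it. Foxa2 went from 2.40, 3.21 and 3.91 to 1.10, 1.77 and 2.40 (−1.38, SE 0.22, adjusted p = 5.91e-06), and Foxa1 from 1.52, 2.28 and 2.59 to 0.29, 0.69 and 1.41 (−1.28, SE 0.22, adjusted p = 2.76e-05). Foxq1, another forkhead gene, fell by 1.63 on the log2 scale (adjusted p = 0.00114). All 4 genes separated the groups, as the choice of the leading falls required. Gas1, a membrane protein that binds hedgehog ligands and was first found in growth-arrested cells, fell by 1.71 on the log2 scale (adjusted p = 9.13e-06), from between 1.81 and 2.14 to between −1.39 and 1.79.

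Rnf43, a ubiquitin ligase that removes Wnt receptors from the cell surface, went from 0.06, 0.48 and 1.21 to −2.01, −1.41 and −0.41 (−1.32, SE 0.20, adjusted p = 1.84e-06). Axin2, a scaffold of the complex that degrades beta-catenin, lay between −0.17 and 0.47 in C0 and between −2.07 and −0.24 in S1 (−0.84, SE 0.16, adjusted p = 0.000128), and the Wnt receptor Fzd7 fell by 0.88 on the log2 scale. Axin2 and Fzd7 were picked out after their values had been seen. Tbx3, a T-box factor of the liver and a Wnt target, fell by 1.09 on the log2 scale (adjusted p = 0.00227). Cks2, a small subunit of cyclin-dependent kinases, fell by 1.13, and Depdc7 by 1.19, on the log2 scale. Cyp2d37-ps, a pseudogene of a cytochrome P450 family with many near-identical copies, fell by 1.41 on the log2 scale, and reads of such copies may be shared. The remaining leading falls were D930048N14Rik (−1.45), Gm11266 (−1.15) and AC122119.1 (−1.35), and the last of these was not called with equal medians and was listed at 0 reads in 1 S1 library.

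Genes were then read in 22 lists of textbook pathways, whose shares of called members are plotted beside the shares of all genes. The immediate early transcription factors were the list with most rises: 23 of 40 tested members were higher (57.5%, against 1.77% of all genes), with a median difference of 0.65, and 1, the differentiation inhibitor Id3, was lower (−0.81) but not with equal medians. Atf3, a stress-induced repressor of the ATF/CREB family, went from −2.93, −2.54 and −0.33 in C0 to 1.16, 2.26 and 3.59 in S1 (3.25, SE 0.34, adjusted p = 1.6e-10). Nr4a1, an orphan nuclear receptor, went from −3.20, −1.97 and −0.26 to 0.62, 1.39 and 4.42 (2.90, SE 0.35, adjusted p = 7.04e-09). Neither gene overlapped between the groups, a condition that all leading genes had to meet. Sik1, a kinase gene switched on by cyclic AMP, rose by 1.97, the small Maf factor Maff by 1.71, the clock-linked repressor Bhlhe40 by 1.62 and the zinc finger factor Klf10 by 1.78. Of the AP-1 subunits, Fosb rose by 1.61, Jun by 1.48, Fos by 1.41, Junb by 1.23 and Jund by 1.15. The call of Fos was lost without C0 replicate 3 (1.19, adjusted p = 0.0589). Egr1, the factor that leads this class in many tissues, stood at 1.09, 1.73 and 5.54 in C0 and at 2.32, 2.98 and 4.18 in S1, and its difference of 0.38 (SE 0.56, adjusted p = 0.674) was within the spread, as were those of Ier2 (0.10) and Myc (0.38).

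**Figure D2:**
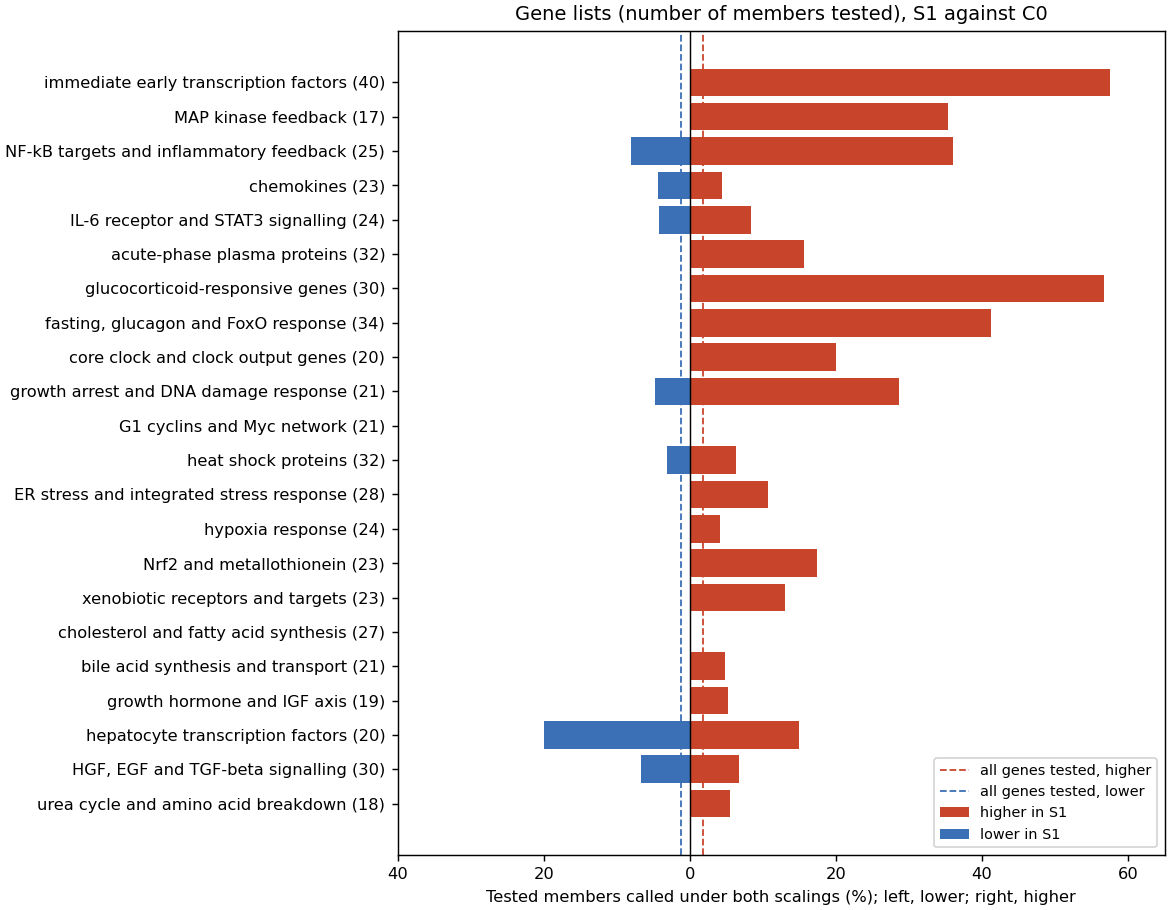
Share of the tested members of each of 22 gene lists called under both scalings, in percent, with the number tested in brackets. Bars to the right are members higher in S1 and bars to the left members lower, the dashed lines are the shares of all 15396 genes (1.77% and 1.23%), and the immediate early (57.5%) and glucocorticoid-responsive (56.7%) lists have the longest bars.

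Of 17 members of the MAP kinase feedback list 6 were higher (35.3%, against 1.77% of all genes), 10 were not called and 1, the Ras pathway inhibitor Spry4 (−0.62), was lower but not with equal medians. The median difference of the list was 0.09. Dusp1, a nuclear phosphatase that inactivates MAP kinases, went from 2.03, 2.68 and 3.44 to 3.72, 4.85 and 5.43 (1.99, SE 0.25, adjusted p = 3.32e-08) without overlap. Dusp8 rose by 1.47, Dusp4 by 1.05 and Dusp5 by 0.76. Rasd1, a small GTPase, rose by 1.33, and the EGF receptor inhibitor Errfi1 rose by 0.82 but not in every set of replicates, as given with the sets.

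Promoter sequence was read for the genes that rose together. RefSeq windows of GRCm38.p6, from 250 bases before to 50 bases after a gene's start, matched 9234 of the 15396 genes tested, 175 of the 272 higher and 122 of the 190 lower. The cyclic AMP response element in its full palindromic form (CRE, TGACGTCA, read on both strands) occurred in 8.57% of the higher genes matched (15 genes), in 0.820% of the lower (1 gene), in 3.54% of the tested genes matched and in 1.79% of all 32851 windows. Of its 601 matches in these windows 2 were overlapped by an E-box. The 15 genes were Btg2, Ccdc86, Dcun1d3, Dusp1, Dusp8, Epha2, Errfi1, Has1, Maff, Phf8, Ppan, Ppp1r15a, Ppp2r2d, Rcan1 and Slc25a25. Those of 3 genes from the immediate early and MAP kinase lists are printed, 5′ to 3′ on the gene's strand, to show where the element lies, with the CRE in capitals. They are Dusp1 (chr17:26508423-26508722, minus strand, match beginning at −143 from the start), Btg2 (chr1:134079106-134079405, minus strand, −166) and Maff (chr15:79347270-79347569, plus strand, −29, in 1 of its 3 windows).
Dusp1: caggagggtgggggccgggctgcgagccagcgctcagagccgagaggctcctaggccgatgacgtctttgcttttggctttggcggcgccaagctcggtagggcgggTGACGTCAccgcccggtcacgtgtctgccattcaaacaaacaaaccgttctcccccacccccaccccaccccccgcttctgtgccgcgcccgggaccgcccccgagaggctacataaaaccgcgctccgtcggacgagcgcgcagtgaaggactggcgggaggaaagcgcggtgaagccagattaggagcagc
Btg2: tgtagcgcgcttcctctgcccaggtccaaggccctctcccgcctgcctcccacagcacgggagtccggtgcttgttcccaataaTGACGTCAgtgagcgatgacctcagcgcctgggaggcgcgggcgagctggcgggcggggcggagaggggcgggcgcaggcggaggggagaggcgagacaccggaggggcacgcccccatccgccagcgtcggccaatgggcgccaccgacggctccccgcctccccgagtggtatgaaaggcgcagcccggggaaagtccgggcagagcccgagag
Maff: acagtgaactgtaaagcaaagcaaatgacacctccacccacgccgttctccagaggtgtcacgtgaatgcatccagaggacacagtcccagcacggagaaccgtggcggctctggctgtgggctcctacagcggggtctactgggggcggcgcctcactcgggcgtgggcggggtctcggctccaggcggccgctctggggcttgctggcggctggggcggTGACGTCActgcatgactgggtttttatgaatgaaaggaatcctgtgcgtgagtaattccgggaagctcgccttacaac
Btg2, an antiproliferative protein, rose by 1.47 (SE 0.32, adjusted p = 0.000834), and Dusp1 and Maff had the values given above. Of the other motifs searched in the higher genes and in the genes tested, the AP-1 site TGANTCA occurred in 7.43% and 6.65%, the glucocorticoid half-site pair ACANNNTGT in 5.14% and 5.61%, and the E-box CACGTG in 15.4% and 11.6%. The lower genes held these motifs in 5.74%, 5.74% and 9.02%. The shares in all windows were 7.81%, 6.85% and 7.15%.

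The string TGCNCNC is a looser form of the metal response element core. It takes any base where the core takes A or G, so some matches are not the core (in Mt2, TGCTCTC and GGGAGCA). The string is short and common, in 51.0% of all windows, 63.1% of tested, 70.3% of higher and 77.0% of lower genes. It is shown for the metallothioneins because several copies stand close together there, with each match in capitals (a match on the opposite strand reads GNGNGCA). Mt1 (chr8:94178839-94179138, plus strand) held 3 matches and Mt2 (chr8:94172368-94172667, plus strand) held 6.
Mt1: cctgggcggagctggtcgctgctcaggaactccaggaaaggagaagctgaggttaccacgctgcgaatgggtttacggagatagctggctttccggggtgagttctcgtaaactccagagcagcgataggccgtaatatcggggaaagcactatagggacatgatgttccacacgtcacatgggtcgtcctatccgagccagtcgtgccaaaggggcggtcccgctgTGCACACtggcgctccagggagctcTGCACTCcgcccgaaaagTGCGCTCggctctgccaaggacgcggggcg
Mt2: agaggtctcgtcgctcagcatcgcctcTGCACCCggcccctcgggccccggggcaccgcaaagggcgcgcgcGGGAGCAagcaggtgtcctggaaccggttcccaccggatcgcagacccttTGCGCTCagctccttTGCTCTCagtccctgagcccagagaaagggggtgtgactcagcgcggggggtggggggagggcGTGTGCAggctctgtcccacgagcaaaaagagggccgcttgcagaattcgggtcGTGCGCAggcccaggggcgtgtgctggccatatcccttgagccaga
A match is a string of letters in a window, and occupancy by a factor was not measured.

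Adrenal glucocorticoid is the hormone most closely tied to surgical stress, and its list differed between the sets of 3 replicates. Of 30 glucocorticoid-responsive genes tested 17 were higher in S1 (56.7%, against 1.77% of all genes) and 0 lower, with a median difference of 0.82. Within replicates 1 to 3, 22 were higher and 1 lower, with a median of 1.86. Within replicates 4 to 6, 4 were higher and 2 lower, with a median of 0.06. Over all genes, the same comparison called 2077 genes in replicates 1 to 3 (13.5%), 410 higher and 1667 lower. In replicates 4 to 6 it called 374 (2.43%), 136 higher and 238 lower. These calls within the sets were made without equal medians, and the median change over all genes was −0.225 and −0.042. The sets themselves were compared by an interaction term, which was called for 762 genes (4.95%) and for 16 of the 30 members. The count over all genes was 362 without S1 replicate 4, 488 without S1 replicate 3 and 489 without C0 replicate 4.

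Over this list the resting livers differed in level between the sets. C0 replicates 4 to 6 were called above C0 replicates 1 to 3 for 543 genes (3.53%) and for 19 of the 30 members, with a median difference of 1.62 over the list. All 3 C0 libraries 4 to 6 lay above the other 6 C0 libraries, 7 to 9 included, in 21 of 30 members, against 7.05% of all genes, while C0 7 to 9 lay within 0.08 of C0 1 to 3 at the list's median. S1 replicates 4 to 6 differed from S1 replicates 1 to 3 by a median of −0.01 over the list, although over all genes they were called above them for 1364 genes (8.86%), in libraries whose median gene also lay higher. With all 6 sham livers set against C0 1 to 3 alone 22 members were higher and 0 lower, and against C0 4 to 6 alone 5 were higher and 3 lower (both settings were chosen after the data had been seen). The experiment ran in 3 separate periods, of which 2 each held 3 C0 and 3 S1 livers and the other held C4 with 3 C0 livers, and sham mice were operated on in groups of 3. Replicate numbers are not given by period, so whether the sets of 3 are those periods is not known from the labels, and what sets C0 4 to 6 apart was not tested.

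Lpin1, a phosphatidate phosphatase of triglyceride synthesis and a coactivator in fasting, shows the pattern most fully. Its log2 RPKM was 2.32, 2.50 and 2.57 in C0 1 to 3, 6.72, 7.39 and 7.31 in C0 4 to 6, and 3.73, 2.42 and 2.19 in C0 7 to 9. In the sham livers it was 7.07, 7.39 and 7.48 in replicates 1 to 3 and 5.61, 5.22 and 6.30 in replicates 4 to 6. Its difference was thus 4.79 in one set and −1.42 (adjusted p = 0.22) in the other, with an interaction of −6.21, and the pooled call of 1.68 (adjusted p = 0.0373) stands for neither. Cdkn1a, the cell cycle inhibitor p21, lay at 0.94 to 1.55 in C0 1 to 3 and at 5.36 to 5.50 in C0 4 to 6, and at 4.60 to 6.09 in S1. Its change was 4.52 and −0.40. Fkbp5, a chaperone that dampens the glucocorticoid receptor and is itself induced by it, rose by 2.11 in replicates 1 to 3 and fell by 2.05 in replicates 4 to 6, both called, and its pooled difference was 0.03 (adjusted p = 0.986). Per1, a clock repressor with a glucocorticoid response, rose by 3.67 in the first set and differed by 0.26 in the other. Ddit4, an inhibitor of mTORC1, gave 3.41 and 0.91, and Mfsd2a, a lysolipid transporter, 4.13 and 0.08. The receptor gene Nr3c1 itself differed by −0.15 between S1 and C0 and was not called.

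**Figure D3:**
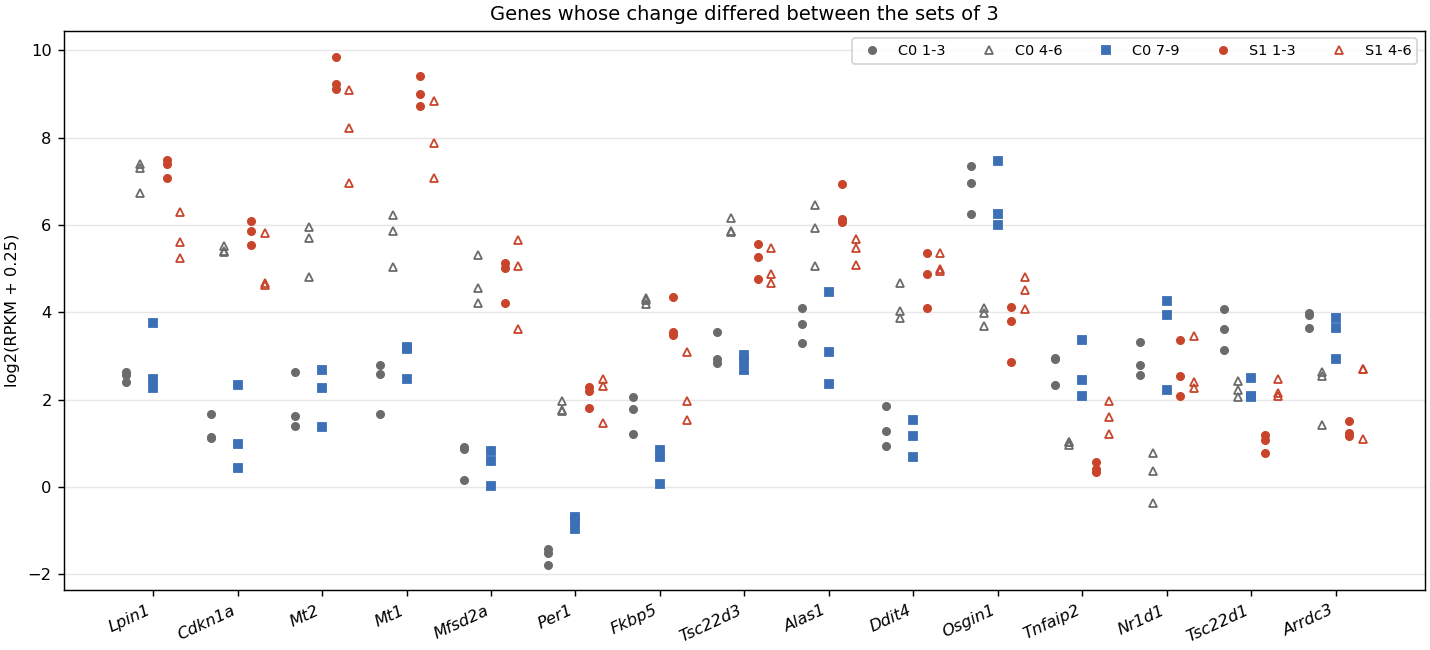
Levels, as log2(RPKM + 0.25), of 15 genes whose change differed between the sets of 3, with grey for C0 replicates 1 to 3 (circles) and 4 to 6 (triangles), blue squares for C0 replicates 7 to 9 and red for S1. For Lpin1 the C0 triangles (6.72 to 7.39 log2 RPKM) lie with the S1 points and the C0 circles (2.32 to 2.57) with the blue squares.

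A few members of the list rose in both sets, namely Mt1, Mt2, Dusp1 and Sgk1. Mt2 rose by 7.51 in replicates 1 to 3 and by 2.60 (adjusted p = 0.024) in replicates 4 to 6, and Sgk1, a kinase that controls ion transport, rose by 1.20 and 1.28. Of the 40 immediate early members 16 were higher and 4 lower in replicates 1 to 3, and 17 and 0 in replicates 4 to 6. Of all 15396 genes 410 were higher and 1667 lower in the first set, and 136 and 238 in the other. Called in both sets in the same direction were 9 of the members, against 0.981% of all genes. Against C0 1 to 3 alone 21 of these members were higher (414 of all genes), and against C0 4 to 6 alone 19 (164 of all genes). Atf3 changed by 2.53 and 3.97, Sik1 by 1.59 and 2.35, and Klf2, a factor best known from endothelium, by 1.14 and 1.11. Nr4a1 rose in both but by more in replicates 4 to 6 (1.74 and 4.06, interaction 2.31). The plot of the changes in each set shows the 2 lists on opposite sides of the line of equal change for many of their members.

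**Figure D4:**
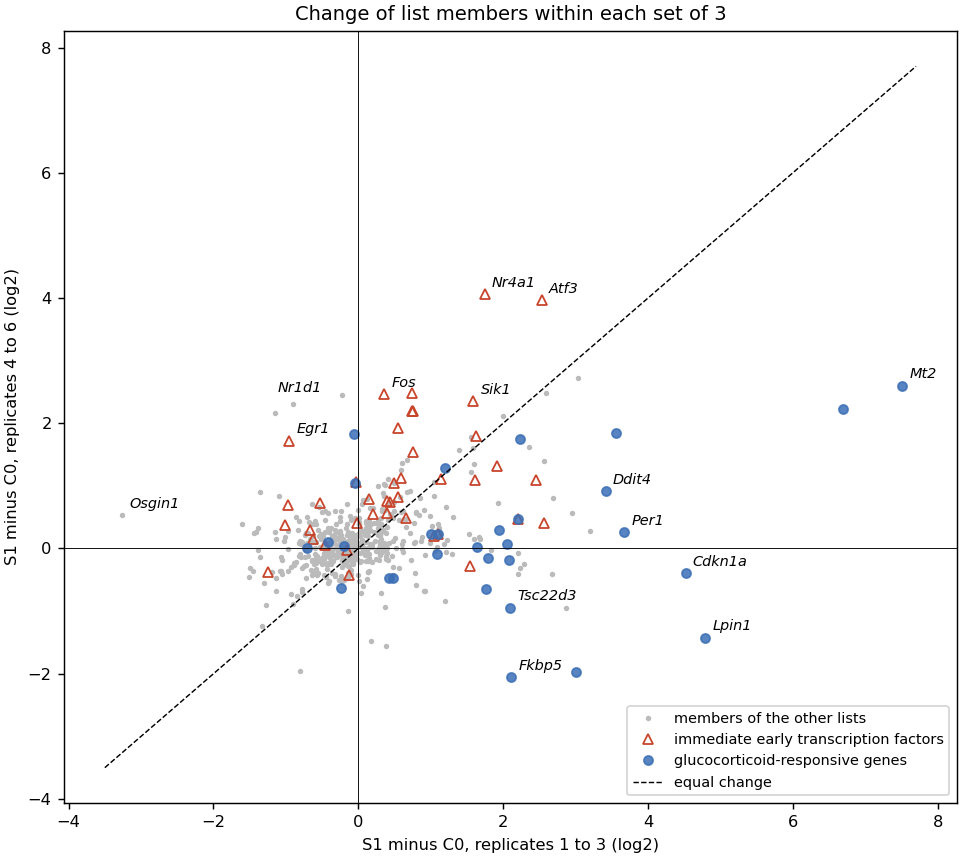
Difference between S1 and C0 (log2) in replicates 1 to 3 on the x axis and in replicates 4 to 6 on the y axis for each tested list member. Blue points are glucocorticoid-responsive genes, red triangles immediate early factors, grey points all other members and the dashed line equal change, with Lpin1 at 4.79 and −1.42 far below the line and Nr4a1 at 1.74 and 4.06 above it.

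Of the 272 genes higher under both scalings 71 (26.1%, against 4.95% of all genes) changed by different amounts in the sets. Of the 71, 63 changed by less in replicates 4 to 6 and 8 by more. For 49 of the 63 C0 4 to 6 were called above C0 1 to 3, against 3.53% of all genes (median difference over the 63, 1.47). For 21 of the 63 the S1 sets differed (median over the 63, −0.36). Both differences enter the interaction by which the 63 were chosen, so these counts follow in part from that choice. Of the 190 lower genes 42 changed by different amounts in the sets, again against 4.95% of all genes. Nr1d1 and Osgin1 went the other way from the glucocorticoid list. Nr1d1, a repressor of the clock, lay higher in C0 1 to 3 than in C0 4 to 6 by 2.63 and gave −0.22 in the first set and 2.45 in the other, and Osgin1, an oxidative stress protein, gave −3.26 and 0.53.

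Genes called in both sets in the same direction, 66 higher and 85 lower, made up 0.981% of the genes tested, 8.04% of the calls in replicates 1 to 3 and 44.7% of those in replicates 4 to 6. Among the higher were Ppp1r3g (3.57 and 4.43), Gadd45b (3.03 and 2.72), Igfbp1 (2.59 and 2.48), Gdf15 (1.69 and 3.46) and Fbf1 (1.61 and 3.58). Trp53inp1, a p53 target of the stress response picked after its values were seen, rose by 2.43 and 2.22. Actg1, cytoplasmic gamma-actin and picked in the same way, went from 3.88, 3.97 and 4.23 in C0 to 5.55, 5.77 and 6.58 in S1 (1.88, SE 0.29, adjusted p = 2.59e-06). Its pseudogene copy Actg-ps1 rose with it (1.75), and since reads with several positions were divided among them the 2 cannot be told apart. Among the lower in both sets were Hhex (−2.05 and −2.22), Foxa1 (−1.33 and −1.24), Foxa2 (−0.80 and −1.96), Axin2 (−0.72 and −0.95) and D930048N14Rik (−1.33 and −1.56).

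Glucagon and FoxO factors drive the genes of the fasting response when insulin falls. Of 34 members 14 were higher (41.2%, against 1.77% of all genes), or 9 without C0 replicate 1 or without C0 replicate 3. The 1 lower member, the insulin receptor substrate Irs1 (−0.53), was not called with equal medians. The median was 0.51, with 17 members higher and 1 lower in replicates 1 to 3, and 3 higher and 2 lower in replicates 4 to 6. Of all genes 13.5% (410 higher, 1667 lower) and 2.43% (136 higher, 238 lower) were called in these sets. The gluconeogenic phosphatase G6pc rose by 1.49 (1.39 and 1.58 in the sets) and the arrestin Txnip, a brake on glucose uptake, by 1.59 (1.58 and 1.60). Pck1, which commits carbon to glucose, rose by 0.92 (1.69 and 0.15), and the tyrosine aminotransferase Tat by 0.83 (1.64 and 0.02). All 3 C0 libraries 4 to 6 lay above the other C0 libraries in 14 of the 34, against 7.05% of all genes. The coactivator Ppargc1a rose by 0.69 and the fatty acid carrier enzyme Cpt1a by 0.51.

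Inflammatory feedback genes were split. Of 25 NF-kB targets 9 were higher (36%, against 1.77% of all genes) and 3 lower (12%, against 3.91%, and 2 with equal medians). The median was 0.46, and without C0 replicate 3 the number higher was 4. In replicates 1 to 3, 8 were higher and 5 lower, and in replicates 4 to 6, 1 was higher and 0 lower. Over all 15396 genes 410 were higher and 1667 lower in replicates 1 to 3, and 136 and 238 in replicates 4 to 6. The cytokine Il1b was at 0 reads in 1 C0 library and otherwise no higher than −2.44, and it lay at −0.94, −0.31 and 0.46 in S1 (1.67, SE 0.27, adjusted p = 9.73e-06, 1.56 and 1.79 in the sets). Zc3h12a, which degrades inflammatory mRNAs, rose by 0.94, the NF-kB inhibitor Nfkbia by 0.61, and Zfp36, which binds AU-rich mRNAs, by 0.62 (0.51 without C0 replicate 3, adjusted p = 0.06). Irf1, an interferon response factor, fell by 0.93 and Zfp36l1, the relative of Zfp36, by 0.78, on the log2 scale. Of 23 chemokines Cxcl2 was higher (0.61) and Cxcl11 lower (−0.74), 4.35% in each direction against 1.77% and 3.91% of all genes. Cxcl1 (0.92, adjusted p = 0.196) and Ccl2 (0.63, adjusted p = 0.242) did not pass. In the IL-6 and STAT3 list of 24 the share was 8.33% in each direction. The kinase gene Pim3 (1.75) and the feedback inhibitor Socs3 (0.94) were higher, the latter not without C0 replicate 3 (0.78, adjusted p = 0.0675). The STAT inhibitor Pias3 (−0.73) was lower, with Pim1 (−0.60) lower but not with equal medians.

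Of 32 acute-phase plasma proteins 5 were higher (15.6%, against 1.77% of all genes) and 0 lower, with 2 higher without S1 replicate 1 or 3 and 8 without S1 replicate 4. Of the 5, 2 are the metallothioneins, counted here because they also respond to IL-6. Saa1, the serum amyloid that marks inflammation, lay at 5.46, 5.91 and 6.84 in C0 and at 5.88, 7.02 and 10.69 in S1, and its difference of 1.75 (SE 0.52, adjusted p = 0.014) rested on S1 replicates 1 and 3 (9.36 and 10.69), without which it was 1.43 (adjusted p = 0.0619) and 1.16 (adjusted p = 0.129). Saa2, which shares reads with Saa1, gave 1.74 in the same way, and Serpina3n gave 0.53. Haptoglobin (Hp) differed by 0.54 (adjusted p = 0.051) and the iron-binding Lcn2 by 1.02, neither called.

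Of 11 neutrophil markers tested 3 were higher (27.3%, against 1.77% of all genes) and 8 were not called, with a median difference of 0.30. S100a9, a calcium-binding protein of neutrophils and monocytes, went from between −2.17 and −0.57 to between 0.43 and 2.50 (1.99, adjusted p = 0.00408), and its partner S100a8 rose by 2.06. Csf3r, the receptor of G-CSF, rose by 0.70. The summed RPKM of the list, which includes S100a8 and S100a9, was 0.41 to 1.71 in C0 and 2.78 to 12.4 in S1. Ly6g, the marker that defines mouse neutrophils, was at 0 reads in all 6 C0 libraries and in 5 of 6 S1 libraries. The summed markers of macrophages overlapped (15.2 to 44.2 and 25.4 to 46.8 RPKM), with 0 of 11 called. In bulk tissue more cells of a type and more RNA per cell cannot be told apart, and the part of these cells in the cytokine and S100 values was not tested. Of the markers of the other cell types described here Tat of hepatocytes (higher) was called, as was Cela1 of acinar cells (−0.67, not with equal medians).

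The clock list had 4 of 20 members higher (20%, against 1.77% of all genes): Per1 (1.97), Bhlhe40 (1.62), Nr1d1 (1.11) and Nr1d2 (0.69). Among those not called were Arntl, the activator BMAL1 (−0.25), the output factor Dbp (−0.21) and the repressor Per2 (−0.35). Between unoperated livers of ZT6 and ZT2 (C4 against C0 7 to 9) 182 genes were called (1.18%), with 9 of the 20 clock members among them. Dbp was higher there by 5.40 and Arntl lower (−1.76). The count of 182 went to 64 without C0 replicate 9 and to 351 without C0 replicate 8. Of the 272 genes higher after sham surgery 9 were higher and 2 lower in that comparison (median 0.23), and of the 190 lower genes 1 was higher and 3 lower (median 0.01). It covers 4 h rather than 1 h, in a set of mice apart from those compared here.

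Of 21 members of the growth arrest and DNA damage list 6 were higher (28.6%, against 1.77% of all genes), among them Gadd45b, Gadd45g, Btg2 and Plk3, a stress-induced kinase (1.98), and 2 were lower, the death protein Bbc3 (−0.99) and, not with equal medians, the inhibitor Cdkn1b (−0.53). Of 21 G1 cyclins and Myc network genes 0 were higher and 1, Mycn (−0.57), was lower but not with equal medians. Cyclin D1 (Ccnd1) differed by −0.08 (adjusted p = 0.9).

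The other stress and metabolic lists had shares higher of 0% to 17.4%, against 1.77% of all genes. In the heat shock list 2 of 32 were higher (Hspa2 by 0.82, Hspb8 by 0.68) and 1, the transcription factor Hsf2 (−0.80), lower, and the stress-inducible Hspa1a (0.69) and Hspa1b (0.68) did not pass. In the endoplasmic reticulum stress list 3 of 28 were higher (10.7%, namely Cebpb, Herpud1 and Ppp1r15a, the last the phosphatase subunit that restores translation), and Atf4 and Ddit3 were not called. The haem oxygenase Hmox1 (0.78) was the 1 of 24 hypoxia genes called. In the Nrf2 and metallothionein list 4 of 23 were higher (17.4%), where Slc39a14, a zinc importer (0.88), joined Mt1, Mt2 and Hmox1, and Nfe2l2, the gene of Nrf2, was lower (−0.55) as was Osgin1, neither with equal medians. Of 23 xenobiotic genes 3 were higher, Alas1, Tiparp and Por, and the receptor CAR (Nr1i3) was lower (−0.81) but not with equal medians. Cholesterol and fatty acid synthesis had 0 of 27 higher and 1 lower, Lss (−0.91, not with equal medians), bile acid genes 1 of 21 (the FGF co-receptor Klb, 0.59), the growth hormone axis 1 of 19 (Igfbp1) and the urea cycle list 1 of 18 (Aass, 0.55).

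Hepatocyte transcription factors were the list with most falls. Of the 20 described here 5 were lower (25%, against 3.91% of all genes) and 3 higher (15%, against 1.77%). The number higher was 1 without C0 replicate 1 or 2 or S1 replicate 1, 2 or 3. With equal medians 4 were lower (against 1.23% of all genes), Foxa1, Foxa2, Tbx3 and the orphan receptor Nr2f2 (−0.90), while Gata4 (−0.61) was lost. Cebpb rose by 1.48, and Hnf4a (0.51) and Foxa3 (0.58) were called higher through replicates 1 to 3 (1.06 and 1.22), with −0.03 and −0.06 in replicates 4 to 6. Of 30 genes of HGF, EGF and TGF-beta signalling the co-repressor Skil (0.91) and the urokinase receptor Plaur (0.58) were higher. Smad3 (−0.74) and the receptor Erbb3 (−0.91) were lower. That was 6.67% in each direction, against 1.77% and 3.91% of all genes. The growth factor Hgf and its receptor Met were not called.

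The median span on the genome was 10343 bp for the 272 higher and 11813 bp for the 190 lower genes, against 15431 bp for all genes tested, with a median of 5, 5 and 7 exons in the annotated transcript with most exons. Protein-coding genes made up 87.1% of the higher, 86.8% of the lower and 82.8% of all. Zinc finger genes named Zfp, Zkscan or Zscan, a group chosen after its values had been seen, were lower in 36 of 322 (11.2%, against 3.91% of all genes). With equal medians 10 were lower (3.11%, against 1.23%), and 4 were higher (1.24%, against 1.77%). The median difference of the group was −0.21, and −0.06 with equal medians.

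Livers after PH of the same hour were set against S1 directly. X1 differed from S1 in 119 genes (0.773%), 114 higher and 5 lower. Of the 272 genes higher after sham surgery 41 were higher still after PH and 0 were lower, and of the 190 lower genes 2 were higher and 3 lower. The immediate early list had 9 of 40 members called between the operations, and the MAP kinase list 6 of 17. Nr4a1 was 1.97 above S1 (SE 0.35, adjusted p = 0.00023), Rasd1 1.90, Sik1 1.46, Dusp4 1.38, Dusp8 1.16, Dusp1 1.05 and Klf2 0.94. For Mt2 the difference between the operations was −0.00 (SE 0.59), for Ppp1r3g −0.04 (SE 0.42) and for Hhex −0.35 (SE 0.38), none called. The number of X1 against S1 calls fell to 16 when the spread was taken from these groups alone, and to 72, 77 and 76 without S1 replicate 1 and X1 replicates 2 and 3.

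The later sham livers are given as differences from the same 6 C0 libraries, which S1 also uses. The 272 and 190 genes were chosen against these C0 libraries, so their later differences and calls follow in part from that choice. Shares of all genes called against C0 at the later times are not given. The median of the 272 genes was 0.87 at 1 h, 0.88 at 4 h, 0.51 at 10 h, 0.05 at 20 h and 0.37 at 48 h, and the number of them called higher was 165, 122, 31 and 65 at the last 4 times, against 20, 16, 26 and 2 called lower. That of the 190 lower genes was −0.80, −0.93, −0.11, 0.06 and −0.41. In the direct comparison S4 differed from S1 in 3885 genes (25.2%), and of the 272 genes 64 were higher at 4 h than at 1 h and 78 lower. Ppp1r3g was lower at 4 h than at 1 h by 5.17 (that is, −5.17, adjusted p = 2.9e-15), Nr4a1 by 2.96 (−2.96), Dusp1 by 2.59 (−2.59) and Gadd45b by 1.55 (−1.55). Mt2 was higher at 4 h by 3.16, Junb by 1.60 and Saa1 by 5.47 (adjusted p = 5.6e-13). Among the falls, Hhex was 1.17, Foxa2 1.06, Foxq1 1.57 and Tbx3 1.57 higher at 4 h than at 1 h, and Gas1 was lower (−1.13). The later groups hold between 3 and 5 livers each. Those of 10 h and 20 h came from one period of the experiment and that of 48 h from another, so that time and period cannot be told apart among them. The livers of 4 h, 10 h and 20 h were also taken at other hours of the day than C0. Time after surgery therefore cannot be told apart from the hour of the day and its feeding phase.

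**Figure D5:**
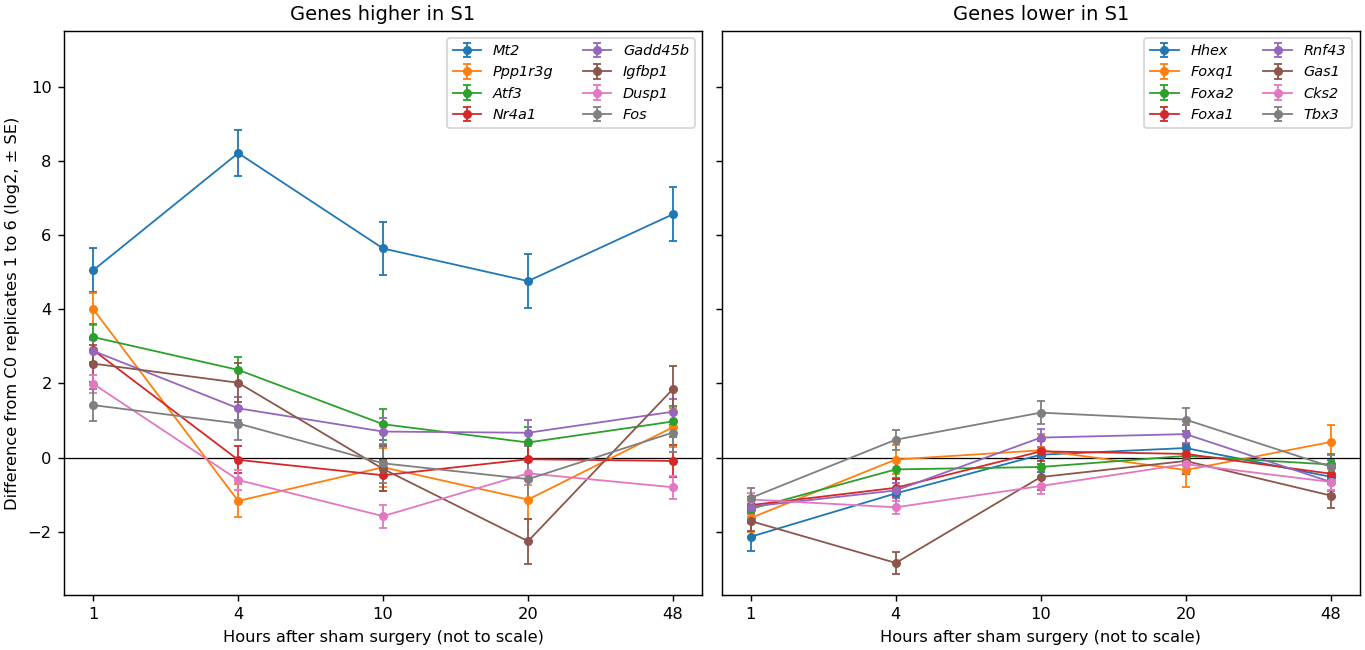
Difference of sham livers from C0 replicates 1 to 6 (log2, error bars are the SE of the fit) at 5 times from 1 h to 48 h for 8 genes higher in S1 (left) and 8 lower (right). Nr4a1 goes from 2.90 at 1 h to −0.06 at 4 h and Mt2 from 5.05 to 8.21, and Hhex from −2.13 to −0.97. The hour of the day also changes along the x axis.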

How the data were processed

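Poly(A) RNA from individual mouse livers was sequenced with a stranded kit. The authors trimmed reads with Cutadapt and prinseq-lite, aligned them with TopHat 2.0.13 and Bowtie2 to mm9, handled alignments with SAMtools 0.1.19, counted them per Ensembl gene on the transcribed strand with featureCounts, divided a read with several positions among them, and deposited log2 RPKM values of 37991 genes. Division by the total of a library means that a change in abundant transcripts moves all others. Of 84 value columns 80 carried the name of 1 labelled sample, and the other 4 were not used. The authors' read counts were not used here.

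Genes above a log2 RPKM of −1.5 in at least 1 library (15396) were fitted on the scale of log2(RPKM + 0.25) by limma (version 3.58.1, R version 4.3.3, empirical Bayes with trend), in 1 model with a coefficient for each of 19 groups and another for C0 replicates 7 to 9. Each comparison had its own Benjamini-Hochberg adjustment. The fit was tested on simulated data. Depth was estimated from the value that 1 read takes. Positions came from the GENCODE annotation of mm9 for 37205 genes, and promoters from RefSeq for GRCm38.p6, whose coordinates are not those of mm9. Tables were made in Python 3.11.15 (pandas 2.3.3, numpy 2.4.6) and plots in matplotlib 3.10.9.

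The comparison, the gene lists and the members named were chosen with earlier results of these data known. Named genes were the 12 largest rises and falls without overlap and with a mean above 0, up to 6 called members in each direction and the leading members of each list, the called genes with the largest interaction and the cell type markers. A few of these genes are not reported here and were left out of the lists. Alternatives were another pseudocount, other filters, equal medians, other controls, each library left out, each set of 3 alone, a replicate block, a term for the sets of 3, robust empirical Bayes and the groups of a contrast alone. Replicate numbers do not pair the livers.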

Additional observations from a re-analysis of the deposited data

Results flagged for a closer look

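Chance flags about 1 in 20 groups of libraries as holding a library far from the others, and 13 of the 280 groups examined (140 genes, S1 and C0 each) held one. In S1 these were Nfkbiz in replicate 1 (high, 1.51 log2 RPKM), Socs3 in replicate 6 (high, 1.23), Mycn in replicate 5 (high, −2.16), Csf3r in replicate 2 (low, −2.16), Ier2 in replicate 4 (high, 4.58) and Hspa1b in replicate 2 (high, 3.54). In C0 they were Plk3 in replicate 3 (low, 0.33), Lss in replicate 1 (low, 2.03), Erbb3 in replicate 2 (high, 5.37), Csf3r in replicate 2 (high, −2.61), Jun in replicate 3 (low, −0.04), Hspa1a in replicate 2 (high, 0.13) and Ccl2 in replicate 2 (high, −0.68).

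For 36 named genes the change in S1 differed between the sets of 3 by the interaction test. The values are the change in replicates 4 to 6 minus that in replicates 1 to 3, on the log2 scale. Metallothioneins and glucocorticoid or fasting genes had the smaller or opposite change in replicates 4 to 6, with Lpin1 at −6.21, Cdkn1a at −4.92, Mt2 at −4.91, Mt1 at −4.45, Fkbp5 at −4.16, Mfsd2a at −4.05, Per1 at −3.41, Tsc22d3 at −3.04, Ddit4 at −2.50, Errfi1 at −1.93 and Tat at −1.62. The same sign held for the factors Cebpb (−2.16), Foxa3 (−1.27) and Hnf4a (−1.09), for the haem and drug enzymes Alas1 (−3.07), Cyp2b10 (−2.60) and Por (−1.87), and for Pim3 (−1.89), the IL-6 receptor Il6ra (−1.57), Slc39a14 (−1.31), Hspb8 (−1.09) and Aass (−1.07). The other sign held for Osgin1 (3.80), Tnfaip2 (2.88), Nr1d1 (2.67), Tsc22d1 (2.60), Arrdc3 (2.52), Nr4a1 (2.31) and Fbf1 (1.97). It held also for the genes that fell more in replicates 1 to 3, namely Gas1 (1.66), Depdc7 (1.46), Smad3 (1.22), Nr2f2 (1.18), Cks2 (1.11) and Pias3 (0.65), and for Met (0.95).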

How the results depend on the processing

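The S1 against C0 count of 874 genes moved to 386 with a pseudocount of 1 (180 higher, 206 lower), to 487 with the spread of these groups alone (144 and 343) and to 418 higher and 190 lower with equal medians. Alone, replicates 1 to 3 gave 2053 (1649 lower) and replicates 4 to 6 gave 363 (133 and 230), and, in settings chosen after seeing the data, C0 1 to 3 as the control gave 414 higher and C0 4 to 6 gave 164. Leaving out 1 library gave 602 to 1248 genes, with 214 to 302 higher and 379 (without S1 replicate 3) to 946 (without S1 replicate 4) lower. Replicate numbers do not pair the livers (same-number correlations between −0.09 and 0.22), and a replicate block gave 274 genes (93 and 181) for S1 against C0 and 2 for X1 against S1. A term for replicates 1 to 3 against 4 to 6 in the 12 libraries gave 652 (196 higher, 456 lower), and 31 of the 107 named genes called lost their call with it. With equal medians the interaction gave 578 genes, X1 against S1 94 and S4 against S1 3917. The interaction count of 762 ranged from 362 (without S1 replicate 4) to 896, with 488 without S1 replicate 3 and 489 without C0 replicate 4. X1 against S1 (119) fell to 16 with these groups alone and ranged from 72 (without S1 replicate 1) to 165, with 77 and 76 without X1 replicates 2 and 3. S4 against S1 (3885) gave 2489 with a pseudocount of 1. C4 against C0 7 to 9 (182) gave 116 with a pseudocount of 1, 74 with equal medians, 2 with these groups alone, 1215 with all 9 C0 libraries and 64 to 351 without 1 library (96 without C0 replicate 7, 351 without 8, 64 without 9, 79 and 113 without C4 replicates 2 and 3). Changes turned sign in replicates 1 to 3 alone for Nr1d1 (−0.22), and in replicates 4 to 6 alone for Errfi1 (−0.15), Cdkn1a (−0.40), Lpin1 (−1.42), Osgin1 (0.54), Alas1 (−0.40), Por (−0.029), Foxa3 (−0.058), Hnf4a (−0.035) and Tnfaip2 (0.59). They did so against C0 1 to 3 for Nr1d1 (−0.20) and against C0 4 to 6 for Errfi1 (−0.28), Cdkn1a (−0.0004), Lpin1 (−0.63), Osgin1 (0.10), Tat (−0.084) and Tnfaip2 (0.015). The cause was not tested. Of 107 named genes called, 69 kept their call whichever 1 of the 12 libraries was left out. The other 38 were AC122119.1, Aass, Alas1, Arrdc3, Bcl3, Birc3, Cdkn1b, Cela1, Cxcl2, Dusp5, Errfi1, Fos, Foxa3, Herpud1, Hmox1, Hnf4a, Id3, Il1a, Irs1, Klb, Lpin1, Lss, Mycn, Nfe2l2, Nfkbiz, Nr1d1, Nr1i3, Osgin1, Pim1, Plaur, Saa1, Saa2, Serpina3n, Socs3, Spry4, Tat, Tnfaip2 and Zfp36. Depth, 12.2 M reads at the lowest, limits the genes of low level.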
